A study of Mus musculus with 2 samples.

Results

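The cells described here are tumour-sorted cells that carried abundant mCherry transcripts but no detected transcript of Cyr61, Ankrd1 or Sox9. They were chosen by 4 conditions: at least 200 genes detected, at most 10% of UMIs (unique molecular identifiers, 1 per captured RNA molecule) from mitochondrially encoded genes, at least 10 UMIs of the mCherry construct, and 0 summed UMIs of the 3 genes. The rule found 155 such cells in the library from young hosts and 195 in the library from adult hosts, 350 of 12864 kept cells in all. They are called negative cells below. The 549 mCherry cells with at least 1 UMI of the 3 genes, 268 young and 281 adult, are called positive cells and serve as the closest comparison. Negative cells were 36.6% (95% exact binomial interval 32.0 to 41.4) of the mCherry cells in the young library and 41.0% (36.5 to 45.5) in the adult library. As a share of all kept cells they were 2.19% (1.86 to 2.55) and 3.38% (2.93 to 3.88).

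Cyr61 and Ankrd1 are widely used target genes of YAP and TAZ, coactivators that work through TEAD factors and respond to cell spreading and mechanical tension. Sox9 is a transcription factor of progenitor and cartilage-forming cells that can also be raised by YAP. Phgdh, Psat1 and Psph form the serine synthesis pathway, which diverts a glycolytic intermediate into serine and from there into glycine and one-carbon units for nucleotides. Transcription of these enzymes and of asparagine synthetase (Asns) is commonly raised by ATF4, the factor of the integrated stress response. Rhox5 is a reproductive homeobox gene often expressed in mouse tumour lines.

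The study compared tumours grown in young hosts, 4 weeks old, with tumours grown in adult hosts, 24 weeks old, both labelled day 7. Tumours were pooled within each age, cells were sorted for mCherry fluorescence, and 1 droplet library of 3' ends was made per age, with 10000 cells as the target. Strain, tumour line and the cell or construct meant to carry mCherry are not named in the labels or descriptions used here. With 1 pool and 1 library per age, host age cannot be told apart from the pool, the sort, the library or the sequencing run, no test between ages is possible, and every interval covers counting error only.

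The young library held 7558 barcodes with 84862471 UMIs and the adult library 6279 barcodes with 70988070 UMIs, of which 7090 and 5774 passed the limits on genes and mitochondrial RNA. Of these, 11965 had fewer than 10 mCherry UMIs although the sort was for mCherry, and 6421 young and 4992 adult cells among them drew at least 1% of their UMIs from a list of 16 macrophage markers. Those are called reference macrophages, and they give the level of tumour transcripts in cells of another type. The mitochondrial limit removed 32 young and 38 adult barcodes with at least 10 mCherry UMIs. Before filtering, 111 barcode sequences occurred in both libraries. Among the 97 kept in both, 2 were young negative cells paired with low-mCherry adult cells and 2 were adult negative cells paired with low-mCherry young cells, while 39 were adult positive cells whose young counterparts held a median of only 597 UMIs. No doublet caller was applied.

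Negative cells were shallower than positive cells, and the rule depends on depth. Their median was 18383 UMIs in the young library (lowest 1591, highest 61709) and 19355 in the adult library (931 to 65831), against 52199.5 and 45203 in positive cells. In positive cells the 3 genes together made up 340 CPM (counts per 1000000 UMIs) in the young and 361 CPM in the adult library, which at the negative cells' median depth corresponds to 6.25 and 6.99 UMIs. At those levels 123 of the 155 young and 157 of the 195 adult negative cells were deep enough for at least 3 UMIs. When each cell was thinned at random to 5000 UMIs before the rule was applied, 55.0% of young and 55.9% of adult mCherry cells had none of the 3 transcripts, so some positive cells at full depth join the negative class at low depth. Without the 6% of kept barcodes with the most UMIs the negative share was 65.6% and 69.8%. Cells with exactly 1 UMI of the 3 genes, just outside the rule, numbered 33 and 31. Their Phgdh level was 511 and 542 CPM, their Jun level 84.8 and 64.3 CPM, and they detected a median of 1420.5 and 1387 genes at 5000 UMIs. Just outside the mCherry limit, 28 young and 19 adult cells with 5 to 9 mCherry UMIs and none of the 3 transcripts had 168 and 87.3 CPM of Phgdh and 316 and 272 CPM of Jun. The 8 young and 9 adult negative cells with 10 to 14 mCherry UMIs had 150 and 259 CPM of Phgdh and 56.4 and 47.0 CPM of Jun. These are values of cells that the rule itself sorted, so they are descriptions and no test.

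The markers of the label were present in the negative cells. The mCherry values describe the rule, which set at least 10 UMIs for negative and positive cells and fewer for reference macrophages. mCherry reached 5074 CPM in young and 4510 CPM in adult negative cells, 2898 and 3054 CPM in positive cells and 20.9 and 20.4 CPM in reference macrophages. The median negative cell held 60 mCherry UMIs in the young library (10 to 578) and 70 in the adult library (10 to 400). Phgdh (chr3:98313170-98339990, mm10, minus strand) stood at 388 (367 to 411) CPM in young and 454 (433 to 475) CPM in adult negative cells against 3.32 and 3.78 CPM in reference macrophages. Asns (chr6:7675169-7693254, minus strand) stood at 169 (155 to 184) and 177 (164 to 190.2) CPM, against 1.80 and 3.76 CPM in reference macrophages. Rhox5 stood at 316 (296 to 336) and 314 (297 to 331) CPM, close to its 311 and 285 CPM in positive cells and well above the 2.65 and 2.40 CPM of reference macrophages. With every cell thinned to 5000 UMIs, a Phgdh transcript was seen in 70.8% of young and 75.9% of adult negative cells, in 65.6% and 67.9% of positive cells and in 1.62% and 1.60% of reference macrophages. Without thinning the shares were 85.2% and 88.2%, 95.1% and 95.7%, and 3.15% and 3.31%, at reference macrophage median depths of 9728 and 9445 UMIs. The thinned shares for Asns were 45.3% and 49.4% in negative cells against 0.845% and 1.65% in reference macrophages.

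Markers of most other lineages were near 0 in the negative cells. Epcam and the keratins of the epithelial list were at 0 in both ages, B cell markers summed to 0.645 CPM in the young and 0 in the adult cells, and melanocyte and neural crest genes to 2.26 and 2.66 CPM. T and NK cell markers summed to 2.26 CPM in the young cells, with Cd3d, Cd3e, Trbc2, Cd8a and Cd4 at 0, and to 35 CPM in the adult cells, where 1 cell reached 63.4 UMIs per 10000. Of the fibroblast and pericyte list nearly all signal was Dcn, a matrix proteoglycan, at 119.7 and 130.1 CPM, with Rgs5, Dpt and Col14a1 at 0 in both ages. Neutrophil markers summed to 118 and 53.8 CPM and dendritic cell markers to 48.4 and 69.3 CPM.

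Macrophage RNA was higher than that of any of these lineages. The 16 macrophage markers (Lyz2, Csf1r, Cd68, the C1q chains and others) summed to 4109 CPM in young and 2219 CPM in adult negative cells, against 2484 and 1568 CPM in positive cells and 32768 and 28948 CPM in reference macrophages. Per cell the sum ran from 0 to 299.97 UMIs per 10000 (median 5.48) in the young and from 0 to 234 (median 3.31) in the adult negative cells. In 21 of 155 young negative cells (13.5%, 8.59 to 19.96) and 12 of 195 adult ones (6.15%, 3.22 to 10.5) it was at least 1% of UMIs. Among positive cells 18 of 268 (6.72%) and 4 of 281 (1.42%) reached that level. Doublets were not called, the part of these barcodes in the results was not tested except by leaving them out, and the main gene groups are given both ways.

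Negative cells used a narrower set of genes than positive cells at equal depth. Thinned to 5000 UMIs, they detected a median of 1130 genes in the young (95% interval of the median 1045 to 1207, n = 137 cells) and 1122 in the adult library (1069 to 1197, n = 170). Positive cells detected 1647.5 (1627 to 1667, n = 256) and 1635 (1606 to 1662, n = 274), and reference macrophages 1690 and 1642. Left out as shallower were 18 and 25 negative and 12 and 7 positive cells. Unthinned, genes per 100 UMIs were alike, 12.03 and 11.90 in negative against 10.7 and 11.7 in positive cells, a ratio that falls as depth grows. Fewer than 1000 genes at 5000 UMIs were detected in 54 of 137 young (39.4%) and 54 of 170 adult (31.8%) negative cells, a range that held 6 young and 3 adult positive cells. The ages did not separate: the medians of young and adult negative cells lay inside each other's intervals. Macrophage-RNA-rich negative cells detected more genes, 1597 and 1465, than the other negative cells, 1050.5 and 1108.

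**Figure D1:**
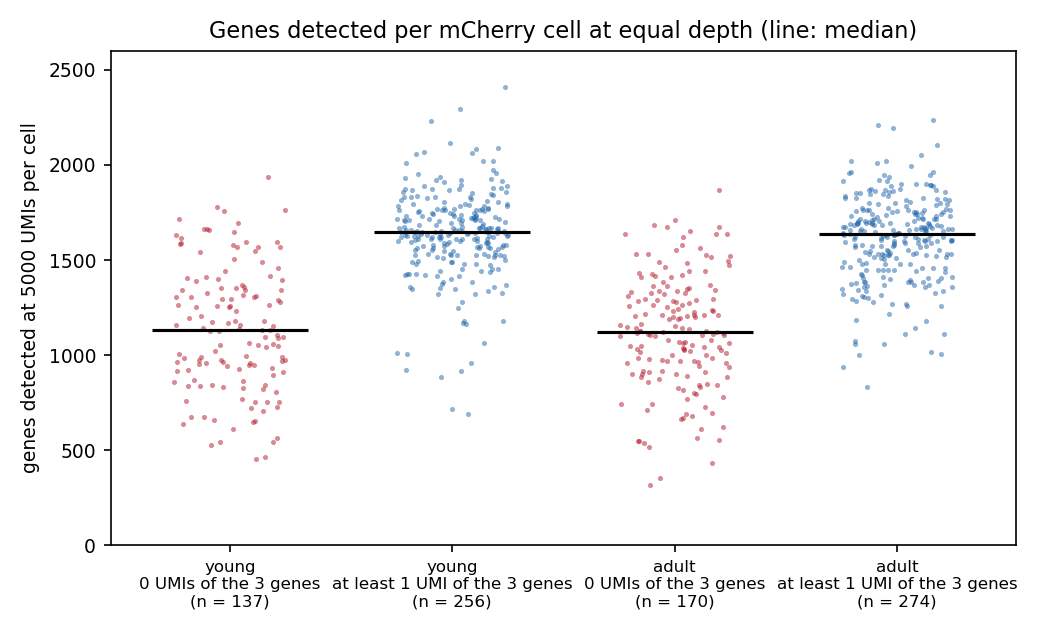
Genes detected per cell after random thinning to 5000 UMIs (y axis, number of genes), 1 point per cell, for negative and positive mCherry cells of each library, with lines at the medians. The negative cells centre on 1130 (young) and 1122 (adult) genes and reach down to 456 and 315, and the positive cells on 1647.5 and 1635.

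The composition of the RNA differed as well. Ribosomal protein genes took a median of 48.5% (young) and 47.8% (adult) of the UMIs of negative cells, 37.6% and 38.3% of positive cells and 12.5% and 15.5% of reference macrophages. Mitochondrially encoded genes took 1.59% and 1.54% in negative and 2.31% and 2.58% in positive cells at the median. The upper tail was longer in negative cells, with a 95th percentile of 7.76% and 6.84% against 5.64% and 5.46%, under the limit of 10% set for all. Malat1 and Neat1, long RNAs that are retained in the nucleus, were at a median of 0.999 and 0.557 UMIs per 10000 in negative cells, 40.4 and 43.5 in positive cells and 198 and 153 in reference macrophages. Neither transcript was seen at all in 40 of 155 young (25.8%) and 59 of 195 adult (30.3%) negative cells, against 7 (2.61%) and 15 (5.34%) positive cells.

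The Malat1 and Neat1 levels fell into 2 ranges. Under 10 UMIs per 10000, a limit set after the values were seen, lay 115 of 155 young (74.2%, 66.6 to 80.9) and 158 of 195 adult negative cells (81.0%, 74.8 to 86.3), 42 of 268 (15.7%) and 56 of 281 (19.9%) positive cells, and 9 of 6421 and 11 of 4992 reference macrophages. Few negative cells were close below the limit: 1 young and 5 adult cells lay between 5 and 10, as did 9 and 13 positive cells. The 2 ranges are parts of a per-cell score and not cell types. Every macrophage-RNA-rich negative cell, 21 of 40 young and 12 of 37 adult, was in the upper range. The lower range carried the tumour markers at the higher level: Phgdh was 478 and 512 CPM there against 190 and 255 CPM in the upper range, and mCherry 5845 and 4897 against 3369 and 3204 CPM. Genes at 5000 UMIs were 1000.5 and 1062 in the lower and 1544 and 1334 in the upper range. Positive cells of the lower range detected 1480 and 1449 genes and carried 539 and 477 CPM of Phgdh. The part of the Malat1 level in the results was not tested except by comparing cells within the lower range.

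**Figure D2:**
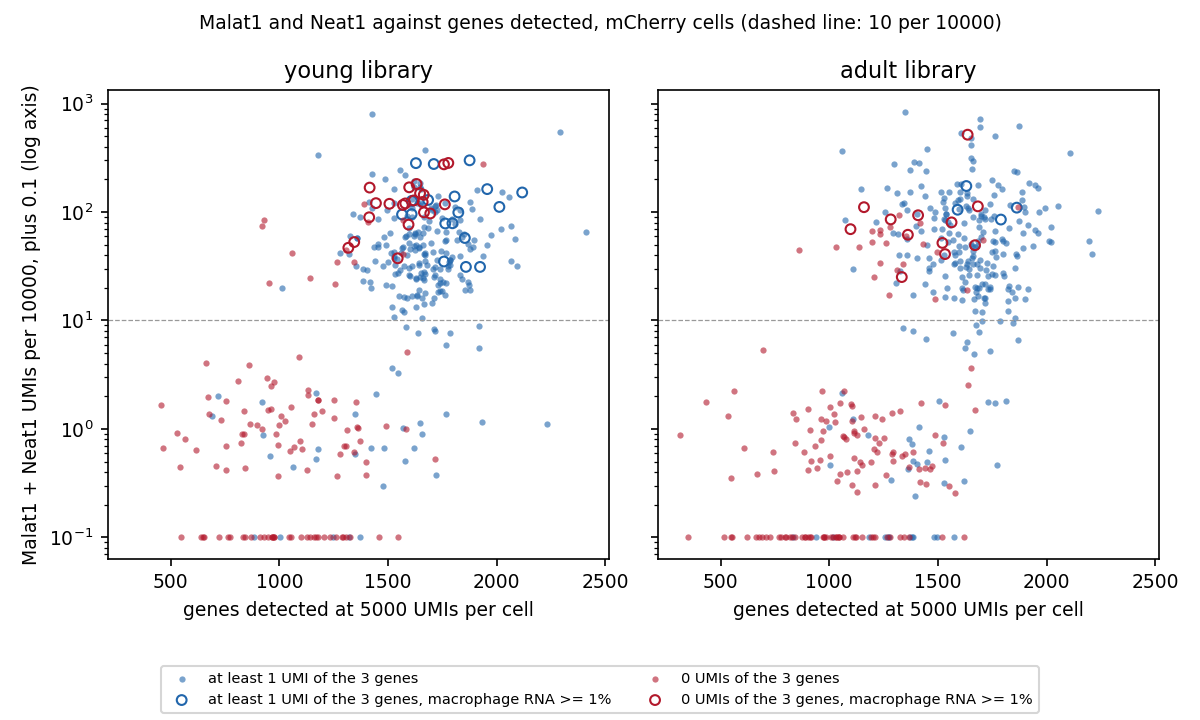
Malat1 plus Neat1 UMIs per 10000 UMIs plus 0.1 (y axis, log scale) against genes detected at 5000 UMIs (x axis), 1 point per mCherry cell in each library, with a dashed line at 10 per 10000 and open circles for macrophage-RNA-rich cells. Most negative cells lie below the line and to the left, most positive cells above it and to the right, and every open circle of either class lies above the line.

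Gene by gene, negative cells were compared with positive cells of the same library, as the log2 ratio of summed UMIs (CPM plus 5). The cells were chosen on their own counts, so this is a description without a test. Features were compared where at least 1 group reached 20 CPM. Of 4872 such features, 79 (1.62%) exceeded 1.5-fold upwards in negative cells in both libraries and 2113 (43.4%) downwards. Within one library the shares were 3.22% higher and 49.3% lower (young) and 2.52% higher and 48.3% lower (adult). The median over all features was -0.57 in the young and -0.54 in the adult library. Scaled by that median, 779 features were higher and 984 lower, so a modest lower value in a single gene says little, and gene groups are given beside these medians. The minimum level also bears on these counts: 1634 of the 4872 features reached 20 CPM in positive cells only, and 1365 of these were lower in both libraries. Of the 3238 that reached it in negative cells, 748 (23.1%) were lower in both libraries. Between cells of similar complexity (from 1000 to under 1400 genes at 5000 UMIs) the medians were -0.03 and -0.04, with 238 features higher and 739 lower. That range held 54 young and 85 adult negative cells. It held only 22 young and 44 adult positive cells, 8.59% and 16.1% of the positive cells with at least 5000 UMIs, so these were not typical positive cells.

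The 10 largest deficits included 2 immediate early genes and a chemokine. Jun (chr4:95049034-95052222, minus strand), a subunit of the AP-1 factor, stood at 30.3 (24.5 to 37.1) and 25.1 (20.5 to 30.4) CPM in young and adult negative cells against 428 and 609 CPM in positive cells. That is 14.1-fold (11.5 to 17.5) lower in the young and 24.2-fold (19.99 to 29.7) lower in the adult library. Cxcl1, a neutrophil-attracting chemokine, stood at 13.2 and 5.31 CPM against 264 and 244. Egr1, an immediate early transcription factor, stood at 5.48 and 4.10 against 79.1 and 95 CPM. Both ages showed the same order for each of these genes. Klf2, a Kruppel-like factor, was 4.84 and 4.59 against 78.2 and 86.4 CPM, and Sox4, a relative of Sox9, 3.87 and 4.83 against 79.2 and 123 CPM. Gnl3, nucleostemin of the nucleolus, was 15.2 and 12.8 against 159 and 181 CPM. Tsc22d1 (-3.11 and -3.47 on the log2 scale) and the unnamed transcript AC160336.1 (-3.68 and -3.84) were also among the 10 lowest, as was Trib3, described with the ATF4 genes.

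Of 15 immediate early genes tested, 0 were higher and 9 lower in both libraries, with medians of -1.41 and -1.94. Among the 10 that reached 20 CPM in negative cells, 5 were lower. Jund, another AP-1 subunit, was at 44.8 and 45.4 against 311 and 412 CPM, while Zfp36, a decay factor for AU-rich mRNAs, was near the level of positive cells at 70.96 and 60.1 against 91.1 and 81.1 CPM. Without the macrophage-RNA-rich cells 13 of 15 were lower, with medians of -2.45 and -2.29, and Jun was at 18.8 and 15.7 CPM. Over all features 2265 of 4787 were lower in that setting. Restricted to cells of the lower Malat1 range in both classes, all 12 tested were lower, with Jun at 8.90 and 6.26 CPM against 123 and 175 CPM. Over all features 1596 of 4214 were lower there. Negative cells of that range still detected fewer genes than positive ones, 1000.5 and 1062 against 1480 and 1449 at 5000 UMIs. With every cell thinned to 5000 UMIs, Jun was seen in 10.9% and 10.6% of negative cells, 63.3% and 69.0% of positive cells and 52.8% and 51.6% of reference macrophages.

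**Figure D3:**
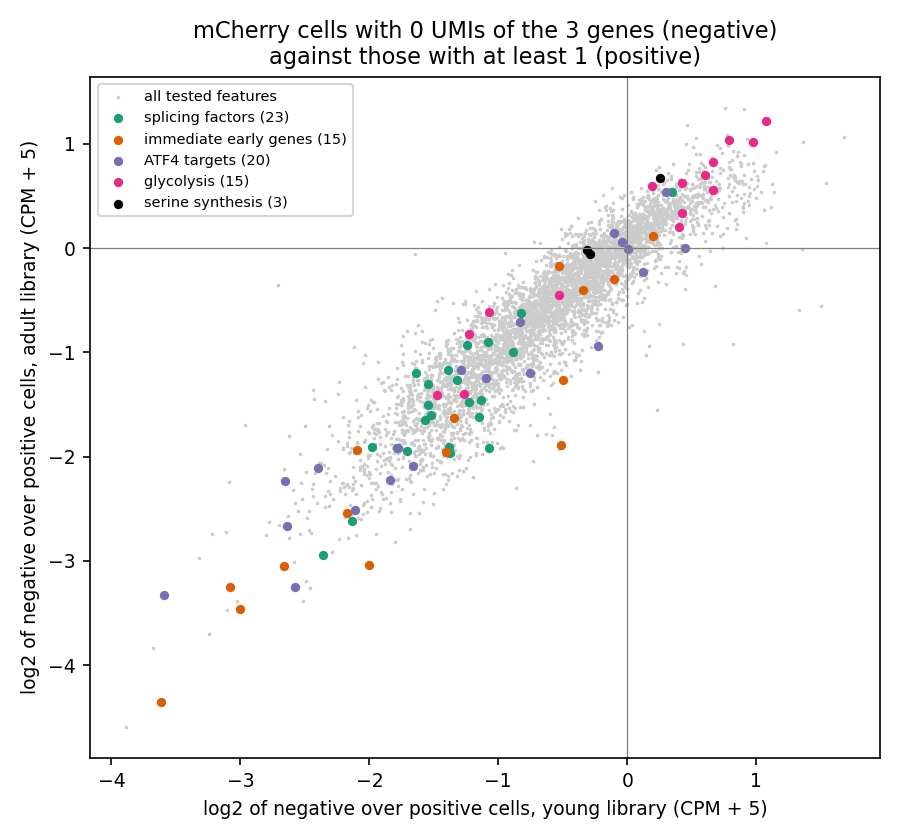
Log2 ratio of negative over positive cells (CPM plus 5) in the young library (x axis) against the adult library (y axis), 1 point per feature at 20 CPM or more, with 5 gene lists in colour. Most points lie below 0 on both axes, splicing factors except Rbm3 lie on the lower side, and several glycolysis genes lie at the upper end.

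Most YAP targets and pathway core genes outside the rule were lower when all tested genes were counted, where 43.4% of all features were lower. Of 7 further YAP targets tested, 5 were lower in both libraries and 0 higher, with medians of -1.94 and -1.95. Amotl2, a YAP-binding scaffold, was 0.645 and 1.21 CPM against 20.04 and 19.1. Gadd45a, a growth arrest gene, was 25.2 and 17.9 against 142 and 167 CPM. Axl, a receptor tyrosine kinase, came closer at 102 and 94.4 against 157 and 117 CPM. Of 6 genes of the pathway core, 4 were lower: Yap1 itself was 5.48 and 6.76 against 25.2 and 26.3 CPM and Tead1 2.90 and 2.90 against 26.8 and 26.3 CPM. The rule used targets of the same pathway, so these values are a description. In addition, 4 of the 7 targets and 3 of the 6 core genes, Amotl2, Yap1 and Tead1 among them, reached 20 CPM in positive cells only. Of the other 3 and 3, 1 target and 2 core genes were lower, against 23.1% over all features that reached 20 CPM in negative cells. Scaled by the median of all features, 5 of 7 targets and 2 of 6 core genes were lower.

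Genes of RNA splicing were low as a group, a list assembled after its first members had been seen. Of 23 tested, 22 were lower in both libraries, with medians of -1.38 and -1.50, and so were 17 of the 18 that reached 20 CPM in negative cells. Rbm39 was 124 and 97.03 CPM against 657 and 779, and Srsf2 115 and 143 against 295 and 349.9 CPM. The exception was Rbm3, a cold-inducible RNA-binding protein, at 884 and 1107 against 692 and 761 CPM. Scaled by the median 15 were lower and 1 higher. Malat1 as a summed transcript was 2902 and 1494 against 4815 and 6158 CPM, and 865 and 915 in negative cells that were not rich in macrophage RNA. Of 16 matrix and mesenchymal genes, 11 were lower, with medians of -1.35 and -1.34, and 5 of the 9 that reached 20 CPM in negative cells. Loxl2, a collagen-crosslinking oxidase, was 46.8 and 63.2 against 197 and 185 CPM, whereas vimentin (Vim), the mesenchymal intermediate filament, was 2419 and 2713 against 1878 and 2008 CPM.

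Transcripts that were higher in negative cells included glycolytic enzymes. Gapdh stood at 5640 (5557 to 5724) CPM in young and 5727 (5654 to 5800) CPM in adult negative cells against 2666 and 2461 CPM, 2.12-fold (2.08 to 2.15) and 2.33-fold (2.29 to 2.37) higher. Pgk1, the enzyme of the next step, was 1641 and 1635 against 834 and 806 CPM. Of 15 glycolysis genes 5 were higher in both libraries and 4 lower, with medians of 0.42 and 0.56. The enolase Eno1 was 1199 and 1260 against 690.01 and 611 CPM. Lower were the glucose transporter Slc2a1, at 27.1 and 28 against 84.1 and 82.5 CPM, and hexokinase Hk2, at 18.7 and 19.3 against 51.9 and 59.3 CPM. Hk2 reached 20 CPM in positive cells only. Among the 12 that reached it in negative cells 2 were lower, against the 23.1% over all such features. In the lower Malat1 range 2 of 15 were higher and 3 lower, with Gapdh at 6248 and 6000 CPM against 4060 and 3876 CPM. Over all 4214 features of that setting 8 were higher and 1596 lower.

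The other features highest in negative cells were mixed. S100a11, a calcium-binding protein, was 1619 and 1398 against 725 and 735 CPM. Cryab, a small heat shock protein, was 42.6 and 25.8 against 9.84 and 9.76 CPM, but 1 young cell gave 47.0% of the young UMIs. Bcl2a1b, Bcl2a1a and Bcl2a1d, near-identical survival genes of blood cells between which reads cannot be assigned with certainty, were higher, Bcl2a1b at 126 and 103 against 46.03 and 47.96 CPM. With them were Ass1 (arginine synthesis, 89.3 and 90.8 against 45.5 and 32.9 CPM), the nonclassical MHC gene H2-T23 (89.99 and 61.8 against 45.6 and 30.9 CPM) and Arhgdib, a gene high in blood cells (118 and 77.2 against 63.2 and 38.4 CPM). Without macrophage-RNA-rich cells these 6 were lower than in positive cells in the young library: the 3 Bcl2a1 genes at -0.48, -0.57 and -0.17 on the log2 scale in the order named, Ass1 at -0.47, H2-T23 at -0.57 and Arhgdib at -0.80. In the adult library all 6 were still above positive cells without those cells, by 0.57, 0.59 and 0.77 for the Bcl2a1 genes, 0.60 for Ass1, 0.48 for H2-T23 and 0.38 for Arhgdib. The count of features higher in both libraries then was 30 instead of 79. Of the 15 macrophage markers tested, 5 were higher in negative cells with all cells kept, medians 0.70 and 0.48, and 0 of 14 without those cells.

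With all cells compared, serine synthesis transcripts were near the level of positive cells, with Phgdh higher and Psat1 and Psph lower in CPM in negative cells. Phgdh, the first and committed enzyme, was 388 (367 to 411) CPM in young and 454 (433 to 475) CPM in adult negative cells against 325 (316 to 335) and 283 (274 to 292) CPM, 1.19-fold (1.12 to 1.27) and 1.60-fold (1.52 to 1.70) higher. Psat1, the aminotransferase, was 183 (168 to 199) and 221 (207 to 236) against 228 and 225 CPM. Psph, the phosphatase of the last step, was 125 (113 to 138) and 140.0 (129 to 152) CPM against 153 and 146 CPM. Only for Phgdh in the adult library did the ratio pass 1.5-fold, and 0 of the 3 genes passed it in both. The 3 summed to 696 (667 to 726) and 815 (788 to 843) CPM in negative cells, 707 and 653 CPM in positive cells and 24.9 and 25.1 CPM in reference macrophages. The log2 ratio of the sum was -0.02 in the young and 0.32 in the adult library, and 0.55 and 0.86 when scaled by the median of all features. In the lower Malat1 range of both classes it was -0.34 and -0.14, so its sign depends on the cells compared. The median used for scaling includes 1634 features that reached 20 CPM in positive cells only, 1365 of them lower. All 3 serine genes reached 20 CPM in negative cells, so the scaled values hold a part that comes from the minimum level.

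The enzymes that use serine were near the level of positive cells. Of 11 one-carbon and glycine genes 0 were higher and 1 lower in both libraries, with medians of 0.04 and 0.17. Mitochondrial Shmt2, which splits serine to glycine, was 116 and 111 against 113 and 109.6 CPM. Mthfd2, the next mitochondrial folate enzyme, was 233 and 228 against 189 and 189 CPM. The one that was lower was Mat2a, which makes S-adenosylmethionine, at 6.13 and 9.90 against 45.3 and 50.5 CPM. Mat2a reached 20 CPM in positive cells only, and of the 9 genes that reached it in negative cells 0 were lower.

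ATF4 targets differed widely among themselves. Asns was 169 and 177 CPM in negative against 137 and 119.9 CPM in positive cells, 0.30 and 0.54 on the log2 scale. In the lower Malat1 range of both classes Asns was 213 and 204 against 209 and 234 CPM, so its direction depends on the cells compared. Trib3 (chr2:152337422-152344032, minus strand), a pseudokinase that restrains ATF4 signalling, was 7.10 (4.45 to 10.7) and 9.66 (6.90 to 13.1) CPM against 141 and 142 CPM, 19.9-fold (13.1 to 31.8) and 14.7-fold (10.8 to 20.7) lower. The stress factor Ddit3, also called CHOP, was 18.1 and 10.6 against 132 and 144 CPM, and the glutathione-degrading Chac1 1.29 and 0.724 against 34.1 and 31.4 CPM. Both were singled out after their values were seen. Atf4 mRNA itself was 149 (136 to 163) and 143 (131 to 155) against 524 and 551 CPM. Of the 20 ATF4 genes tested 13 were lower in both libraries and 0 higher, with medians of -1.19 and -1.22, and scaled by the median 10 were lower and 1 higher. Among the 12 that reached 20 CPM in negative cells 5 were lower. The other 8, Trib3, Ddit3 and Chac1 among them, reached it in positive cells only, and all 8 were lower. Intermediate or near-equal levels were seen for Eif4ebp1, the translation repressor (609.9 and 626 against 1091 and 1024 CPM), Slc3a2, the heavy chain of amino acid exchangers (93.9 and 95.3 against 236 and 220.5 CPM), and the transcription factor Atf5 (69.02 and 82.1 against 63.2 and 97.3 CPM). Of 20 tRNA synthetases, many of which ATF4 also raises, 2 were lower and 0 higher, with medians of -0.25 and -0.07. Scaled by the median, 4 were higher and 0 lower.

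**Figure D4:**
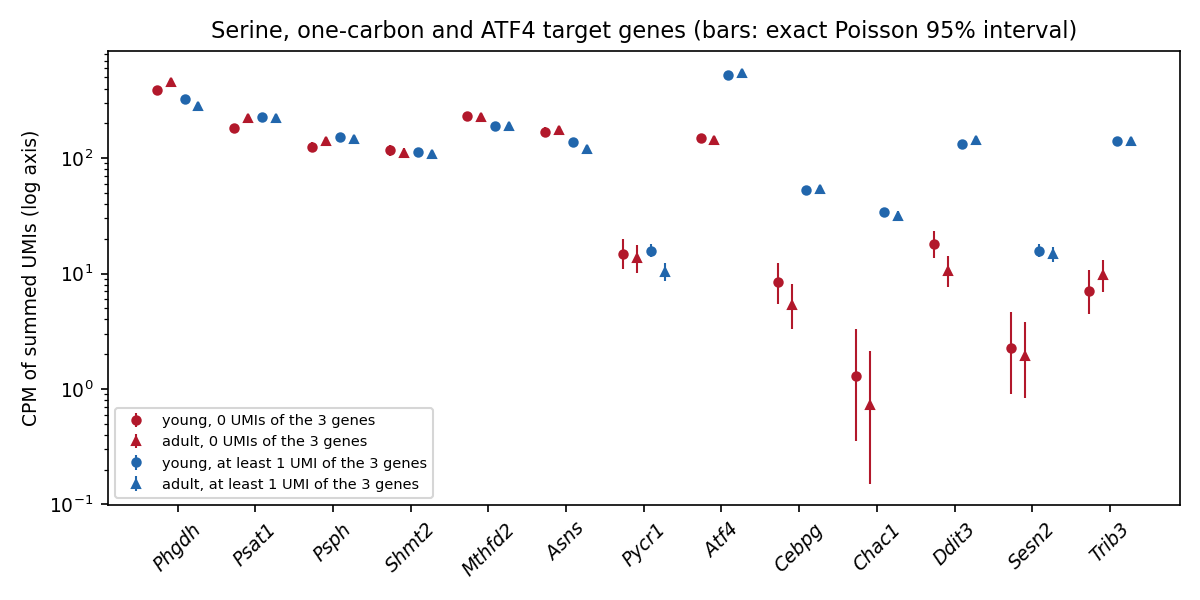
Level (CPM of summed UMIs, log axis) of serine, one-carbon and ATF4 target genes in negative (red) and positive (blue) cells of the young (circles) and adult (triangles) library, with exact Poisson 95% intervals. The enzymes from Phgdh to Asns lie close together in the classes, while Trib3 and Ddit3 lie 7.33-fold to 19.9-fold lower in negative cells. Trib3 and Ddit3 reached 20 CPM in positive cells only.

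With all cells compared, Trib3, which reached 20 CPM in positive cells only, was low in negative cells and Asns was not. The promoters of both are shown because each holds a match to the C/EBP-ATF response element, to which ATF4 binds. They come from RefSeq (GRCm38.p6) and run from 250 bases before to 50 after the transcription start, at chr6:7693160-7693459 and chr2:152344011-152344310, both on the minus strand, 5' to 3', with the match to the element in capitals.
Asns: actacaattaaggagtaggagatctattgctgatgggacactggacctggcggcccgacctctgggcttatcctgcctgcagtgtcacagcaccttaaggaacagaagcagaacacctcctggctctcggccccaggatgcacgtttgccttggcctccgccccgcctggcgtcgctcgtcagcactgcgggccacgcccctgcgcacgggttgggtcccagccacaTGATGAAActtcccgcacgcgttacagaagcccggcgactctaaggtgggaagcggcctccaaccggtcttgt
Trib3: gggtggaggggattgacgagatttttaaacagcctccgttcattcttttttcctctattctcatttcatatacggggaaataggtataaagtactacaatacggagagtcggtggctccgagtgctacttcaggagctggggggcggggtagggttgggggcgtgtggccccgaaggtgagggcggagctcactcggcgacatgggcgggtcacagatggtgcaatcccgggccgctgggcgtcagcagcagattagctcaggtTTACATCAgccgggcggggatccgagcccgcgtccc
The element was searched as TGATGNAA on both strands. In Asns the match begins 23 bases before the start, and in Trib3 the match, on the opposite strand, begins 14 bases after it. Of all 32851 promoters of this length 1304 (3.97%) hold it. Counted by gene, it is held by 9 of 23 ATF4 genes with an entry (39.1%), 5 of 13 tRNA synthetases (38.5%) and 0 of 3 serine synthesis genes. Some genes have several promoters and were counted if any matched, so the shares by gene and by promoter are not of the same unit. A match of letters is not a binding site, and no binding was measured.

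Summed cell cycle transcripts were lower in CPM in negative than in positive cells, and the sum differed more for G2 and M than for S phase. The S phase list summed to 831 (799 to 863) CPM in young and 1046 (1015 to 1078) CPM in adult negative cells, against 1441 and 1509 CPM in positive cells and 396 and 391 CPM in reference macrophages. The G2 and M phase list summed to 1164 (1127 to 1203) and 1477 (1440 to 1514) CPM, against 2624 and 2568 CPM and 467 and 485 CPM. Negative cells thus lay between positive cells and macrophages in both lists and both ages. Of 28 S phase genes 13 were lower in both libraries and 0 higher, with medians of -0.68 and -0.33, a share near the 43.4% lower over all features. Scaled by the median of all features 9 were lower and 1 higher, and the adult median turned to 0.21. Of 23 G2 and M genes 17 were lower and 0 higher, with medians of -1.15 and -0.76, and scaled 5 were lower. Over all features 984 of 4872 were lower when scaled, so by the scaled counts G2 and M genes did not stand out. Among genes that reached 20 CPM in negative cells 5 of 19 S phase and 11 of 16 G2 and M genes were lower, against the 23.1% over all such features.

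Single cycle genes varied. Top2a, the topoisomerase of dividing cells, was 22.3 and 26.6 CPM against 117 and 97.6 CPM. Hmgb2, a chromatin protein high in G2, was 145 and 189.7 against 389 and 475 CPM, and Birc5, survivin, 70.3 and 98 against 171 and 174 CPM. Nearer to positive cells in the young library and above them in the adult were Rrm2, a subunit of ribonucleotide reductase, at 101 and 133 against 113 and 123 CPM, and Ube2c, the mitotic ubiquitin carrier, at 200.3 and 198 against 223 and 169 CPM. Thinned to 5000 UMIs, a Top2a transcript was seen in 8.76% and 10.6% of negative cells, 33.2% and 25.5% of positive cells and 2.53% and 2.08% of reference macrophages. The shares for Rrm2 were 27.0% and 32.9%, 34.8% and 30.7%, and 1.06% and 1.41%. Mki67 was seen in only 5 of 137 young (3.65%) and 2 of 170 adult negative cells (1.18%). Its shares were 1.76% and 2.08% in reference macrophages and 6.25% and 4.01% in positive cells. Pcna, at 18.2% and 22.4%, was near the macrophage shares of 20.1% and 20.3%, against 32.4% and 28.8% in positive cells. Above reference macrophages lay Birc5 (24.1% and 29.4% against 2.06% and 2.77%), Cdk1 (9.49% and 13.5% against 1.67% and 1.63%) and Mcm5 (16.8% and 14.1% against 2.92% and 2.94%). The unthinned Top2a shares were 22.6% and 21.5% in negative and 67.9% and 56.2% in positive cells. No phase was assigned to single cells. Among cells with 1000 to under 1400 genes at 5000 UMIs the log2 ratio of the summed S list was 0.31 and 0.02 in place of -0.79 and -0.53, and that of the G2 and M list -0.14 and -0.14 in place of -1.17 and -0.80. The cycle values thus moved with the number of genes detected, whose part in the difference was not tested otherwise. Only 22 young and 44 adult positive cells lay in that range.

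Young and adult negative cells were alike in most transcripts. Of 3238 features compared, 231 (7.13%) exceeded 1.5-fold in favour of the young and 44 (1.36%) in favour of the adult negative cells, with a median log2 ratio of -0.03. In positive cells 131 of 4780 (2.74%) were higher and 41 (0.858%) lower in the young. The counts depended on the macrophage-RNA-rich cells: without them 32 features were higher and 129 lower in the young negative cells. With at least 50 mCherry UMIs per cell the counts were 143 and 71. Restricted to the lower Malat1 range, which holds none of those cells, 41 of 2855 were higher and 96 lower. Of 15 macrophage markers 13 were higher in the young with all cells kept (median 0.73) and 0 of 13 without those cells (median -0.40).

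Interferon genes were higher in the young with and without those cells. Of 14 type I interferon response genes 13 were higher in young negative cells, with a median of 1.27, and 18 of 18 in young positive cells, with a median of 1.26. Without macrophage-RNA-rich cells 9 of 13 were, with a median of 0.71, and in the lower Malat1 range 7 of 8, with a median of 1.08. Reference macrophages also summed higher in the young library, 9056 against 5955 CPM for the list. Bst2, tetherin, stood at 813 (782 to 845) CPM in young and 332 (315 to 350.4) CPM in adult negative cells, 2.45-fold (2.29 to 2.61) higher in the young, and at 1038 and 344 CPM in positive cells. In the lower Malat1 range Bst2 was 789 and 326 CPM. Zbp1, which senses Z-DNA and Z-RNA, was 155 and 63 CPM, and 111 and 22.2 CPM in the lower range. Gbp3, a guanylate-binding protein, was 66.4 and 19.6 CPM (61.8 and 13.4 in the lower range). Isg15, the ubiquitin-like modifier, was 279 and 103 CPM, and 86.2 and 33.8 CPM in the lower range. Ifi27l2a was 489 and 149 CPM with all cells and 34.2 and 15.6 CPM in the lower range, so most of its level came with the upper range. Ifit3, which has a near-identical copy, was 33.5 and 7.72 CPM. Gbp3 and Ifit3 reached 20 CPM in young negative cells only.

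Antigen presentation followed in part. Of 15 MHC class I presentation genes 7 were higher in young negative cells (median 0.57) and 0 lower, against 11 of 15 in positive cells (median 0.74). Without macrophage-RNA-rich cells 0 were higher and 1 lower (median 0.22), and in the lower Malat1 range 5 of 12 were higher (median 0.54). B2m, the light chain of MHC class I, was 2363 and 1430 CPM, and 1278 and 769 in the lower range. Psmb8, an immunoproteasome subunit, was 512 and 330.4 CPM, and 423 and 243 in the lower range. Of 11 interferon gamma response genes 9 were higher in young negative cells (median 1.08), and 3 of 8 with 1 lower without macrophage-RNA-rich cells (median 0.51). Gbp2 was 269.96 and 119 CPM.

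**Figure D5:**
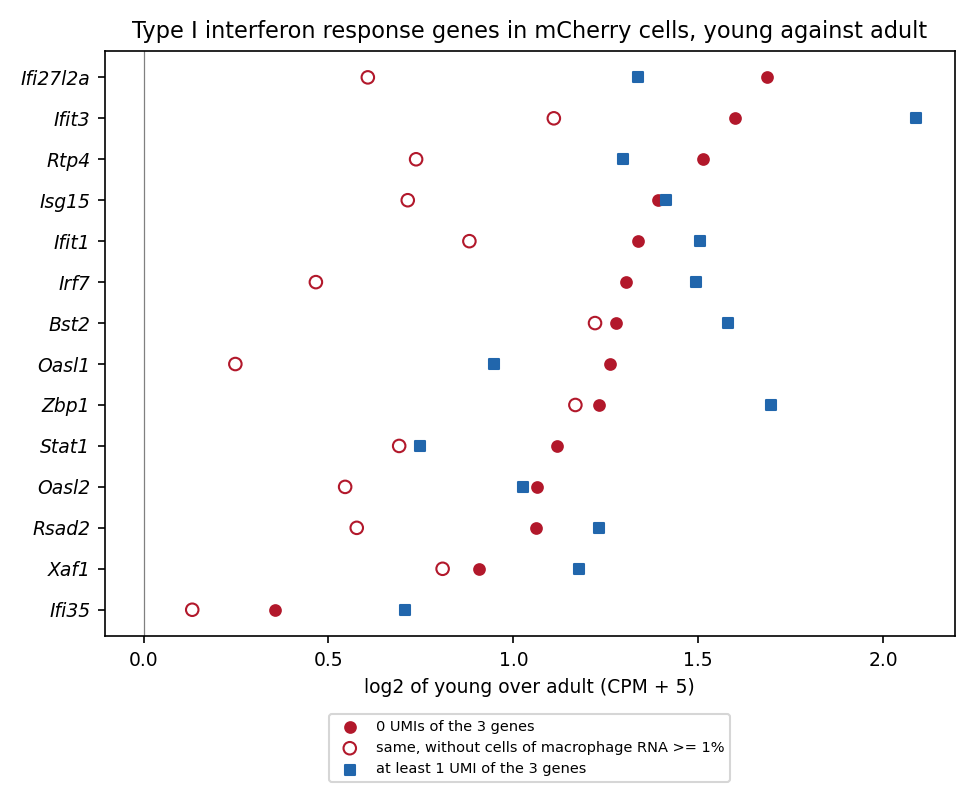
Log2 ratio of young over adult (CPM plus 5) for the type I interferon genes, tested in negative cells, for negative cells (filled circles), negative cells without macrophage-RNA-rich ones (open circles) and positive cells (squares). All points of the 14 genes lie to the right of 0, and for 14 of 14 the open circle lies left of the filled one.

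Among the other young-higher genes 4 drew much of their signal from 1 cell each. Hmox1, heme oxygenase, was 65.5 against 12.8 CPM, with 25.6% of the young UMIs from 1 cell. Lars2, a mitochondrial leucyl-tRNA synthetase, was 114 against 24.6 CPM, with 38.8% from 1 cell. Without macrophage-RNA-rich cells Hmox1 was 28.2 against 10.3 CPM and Lars2 109 against 18.6 CPM. The platelet and macrophage chemokine Pf4 was 35.5 against 6.52 CPM and Cxcl3 36.1 against 8.69 CPM, with 66.4% and 63.4% from 1 cell. Without macrophage-RNA-rich cells both turned lower in the young, -0.63 and -0.51 on the log2 scale. Hmox1, Pf4 and Cxcl3 reached 20 CPM in young negative cells only. The remaining named ones were myeloid genes: Ccl12 at 139 against 38.6 CPM, Acod1, which makes itaconate, at 73.2 against 20.5, and the lectin Clec4d at 109 against 32.8 CPM. Their highest cell gave 13.9%, 11.5% and 11.9% of the young UMIs. Without macrophage-RNA-rich cells the log2 ratios were 0.53, 0.88 and 0.38 in place of 1.72, 1.62 and 1.59, so Ccl12 and Clec4d no longer passed 1.5-fold.

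Of the 10 features lowest in the young relative to the adult negative cells, 3 were collagen genes. These 3, like Ccl24, Tmem267, Ptcra and Pitpnb, reached 20 CPM in adult negative cells only and so entered the comparison through the class where they are high. Col3a1, a fibrillar collagen, was 6.13 (3.69 to 9.57) CPM in young and 49.5 (42.9 to 56.7) CPM in adult negative cells, 8.07-fold (5.04 to 13.7) lower, and 55.1 against 135 CPM in positive cells. Col6a1 was 10.6 against 35 CPM and Col6a2 7.74 against 20.5 CPM. Col3a1 kept its order in the lower Malat1 range, at 7.96 against 47.2 CPM. The order was not particular to negative cells: kept cells with fewer than 10 mCherry UMIs had 0.569 CPM in the young and 14.6 CPM in the adult library. Of 9 matrix and mesenchymal genes tested 3 were lower and 1 higher in the young. Ccl24, an eosinophil-attracting chemokine made by macrophages, had the lowest ratio of all, at 0.645 CPM (2 UMIs) against 27.3 CPM, with 39.8% of the adult UMIs from 1 cell. Tmem267, an uncharacterised membrane protein gene, was 10.6 against 48.03 CPM and 43.1 against 83.5 CPM in positive cells. Ptcra, the pre-T cell receptor alpha chain, was at 10.6 against 28 CPM in negative and 43.98 against 29.4 CPM in positive cells. Pitpnb (-1.13), Rab26os (-0.85) and Brix1 (-0.83, log2) were also among the 10 lowest.

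Serine synthesis and cycle sums were slightly lower in the young negative cells, with a direction that depended on the cells compared. The log2 ratio of young over adult was -0.23 for the summed serine genes, and -0.22, -0.27 and -0.16 for Phgdh, Psat1 and Psph, none past 1.5-fold. It was -0.33 for the S list and -0.34 for the G2 and M list, with 2 of 19 and 3 of 16 genes at least 1.5-fold lower and 0 higher. Ccnb2, a mitotic cyclin, was 24.5 against 49.97 CPM. When the rule was applied to cells thinned to 5000 UMIs the ratios were -0.05 for serine, -0.07 for S and -0.01 for G2 and M. In cells of 1000 to under 1400 genes at 5000 UMIs they were 0.061, 0.082 and 0.13, and without the deepest 6% of barcodes -0.014, -0.044 and 0.022.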

How the data were processed

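Both libraries were deposited as UMI count matrices (whole-number counts per gene and barcode), made with Cell Ranger 3.0.2, per the file headers, and the mm10 build, per the submitters' processing notes, with a sequence for mCherry added as a feature. The authors' count matrices hold barcodes with at least 500 UMIs. Cells were kept from 200 genes upwards with mitochondrial UMIs up to 10%, and doublets were not removed. Counts were summed over the cells of a class and library and given as CPM with exact Poisson 95% intervals, shares with Clopper-Pearson intervals and ratios with conditional binomial intervals. Log2 ratios used a pseudocount of 5 CPM, and features at 20 CPM or more in at least 1 group were compared at 1.5-fold, without the 3 genes of the rule and mCherry. Cells were thinned without replacement (seed 1). With 1 library per age no test across samples exists. The members and gene lists were chosen with earlier results of these data known, and the lists of nuclear-retained RNAs and splicing factors after seeing these values. Genes named are the 10 highest and 10 lowest of each comparison (by the smaller of the 2 libraries' ratios), the marker and serine genes and the most abundant genes of each list, and any others were singled out after their values were seen. One gene that the rule names is not reported here. Alternatives changed the mCherry minimum, macrophage-RNA-rich cells, the deepest cells, thinning, cell weighting, scaling, pseudocount and minimum level. Gene positions come from GENCODE M21, in which 666 of 667 listed genes were found. Python 3.11.15, numpy 2.4.6, scipy 1.17.1, pandas 2.3.3 and matplotlib 3.10.9 were used, and the counting steps were tested on simulated data.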

Additional observations from a re-analysis of the deposited data

Results flagged for a closer look

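Pf4, a chemokine of platelets and macrophages, was higher in negative than in positive cells in the young library (log2 1.33) and lower in the adult library (-0.59). Lars2, a mitochondrial tRNA synthetase, did the same, at 0.82 in the young and -0.92 in the adult library. The opposite directions drew attention to both genes, and the difference between the libraries was not tested, since each age has 1 library. One young negative cell gave 66.4% of the Pf4 UMIs and one gave 38.8% of the Lars2 UMIs of their class.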

How the results depend on the processing

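Of 185 recomputed summary values 85 stayed within the counting error or, for counts, within 1.5 times of the reported one, and the others moved beyond it. Of the 87 summary log2 ratios among them 13 had the other sign. The negative share of mCherry cells (36.6% young, 41.0% adult), in percent, was 31.2 (young) and 33.4 (adult) with at least 50 mCherry UMIs, 65.6 (young) and 69.8 (adult) without the deepest 6% of cells, 54.96 (young) and 55.9 (adult) with the rule on thinned cells, 73.2 (young) and 73.8 (adult) in the lower Malat1 range. The 79 features higher in both libraries became 48 with at least 50 mCherry UMIs, 30 without macrophage-RNA-rich cells, 39 without the deepest 6% of cells, 31 with the rule on thinned cells, 8 in the lower Malat1 range, 238 in cells of middle complexity, 20 with each cell weighing the same, 779 scaled by the median. The 2113 lower became 739 in cells of middle complexity, 984 scaled by the median, 805 with a minimum of 50 CPM, 4297 with no minimum. The 231 features higher in young negative cells became 148 with at least 20 mCherry UMIs, 143 with at least 50 mCherry UMIs, 32 without macrophage-RNA-rich cells, 41 in the lower Malat1 range, 142 in cells of middle complexity, 109 with a minimum of 50 CPM, 533 with no minimum. The 44 lower became 71 with at least 50 mCherry UMIs, 129 without macrophage-RNA-rich cells, 80 without the deepest 6% of cells, 100 with the rule on thinned cells, 96 in the lower Malat1 range, 96 in cells of middle complexity, 75 with pseudocount 1, 12 with a minimum of 50 CPM, 132 with no minimum. For the summed serine genes, the log2 ratio of negative over positive cells became 0.086 (young) and 0.39 (adult) with at least 50 mCherry UMIs, 0.12 (young) without macrophage-RNA-rich cells, -0.24 (young) and 0.52 (adult) without the deepest 6% of cells, 0.11 (young) with the rule on thinned cells, 0.48 (adult) without shared barcodes, -0.34 (young) and -0.14 (adult) in the lower Malat1 range, 0.61 (young) and 0.39 (adult) in cells of middle complexity, -0.13 (young) and 0.22 (adult) with each cell weighing the same, 0.55 (young) and 0.86 (adult) scaled by the median. The log2 ratio of young over adult negative cells for the same list became -0.12 without macrophage-RNA-rich cells, -0.014 without the deepest 6% of cells, -0.053 with the rule on thinned cells, -0.13 in the lower Malat1 range, 0.061 in cells of middle complexity. For the summed S list, the log2 ratio of negative over positive cells became -0.71 (young) and -0.47 (adult) with at least 50 mCherry UMIs, -0.70 (young) and -0.47 (adult) without macrophage-RNA-rich cells, -1.01 (young) without the deepest 6% of cells, -0.51 (young) and -0.39 (adult) with the rule on thinned cells, -0.34 (adult) without shared barcodes, -1.002 (young) and -0.75 (adult) in the lower Malat1 range, 0.31 (young) and 0.023 (adult) in cells of middle complexity, -0.92 (young) and -0.65 (adult) with each cell weighing the same. The log2 ratio of young over adult negative cells for the same list became -0.044 without the deepest 6% of cells, -0.070 with the rule on thinned cells, 0.082 in cells of middle complexity. For the summed G2 and M list, the log2 ratio of negative over positive cells became -1.09 (young) without macrophage-RNA-rich cells, -1.06 (young) and -0.60 (adult) without the deepest 6% of cells, -0.41 (young) and -0.42 (adult) with the rule on thinned cells, -0.68 (adult) without shared barcodes, -1.53 (young) and -1.16 (adult) in the lower Malat1 range, -0.14 (young) and -0.14 (adult) in cells of middle complexity, -1.08 (young) with each cell weighing the same. The log2 ratio of young over adult negative cells for the same list became 0.022 without the deepest 6% of cells, -0.0051 with the rule on thinned cells, 0.13 in cells of middle complexity, -0.21 with each cell weighing the same. Median genes at 5000 UMIs in negative cells became 1318.5 (young) and 1256.5 (adult) with the rule on thinned cells, 1000.5 (young) and 1062 (adult) in the lower Malat1 range, 624.5 (young) and 639 (adult) thinned to 2000 UMIs. In positive cells they became 1608 (young) and 1600 (adult) without the deepest 6% of cells, 1480 (young) and 1449 (adult) in the lower Malat1 range, 882 (young) and 865.5 (adult) thinned to 2000 UMIs. Of 975 values of named genes 485 stayed, 455 moved and 35 were classed as reversed. Values are on the log2 scale and for negative over positive cells unless age is named. The sign changes listed next are those 35, and they do not hold every value that crossed 0. Not listed from the lower Malat1 range are young Phgdh (478 against 539 CPM) and adult Asns (204 against 234 CPM). Rhox5 crossed 0 there as well, at 372 against 402 CPM (young) and 340 against 398 CPM (adult). With at least 50 mCherry UMIs, the sign changed for Pf4 -0.68 (age). Without macrophage-RNA-rich cells, the sign changed for Ass1 -0.47 (young), Pf4 -0.63 (age), Cxcl3 -0.51 (age), Arhgdib -0.80 (young), Bcl2a1d -0.17 (young), Bcl2a1a -0.57 (young), Bcl2a1b -0.48 (young), H2-T23 -0.57 (young). Without the deepest 6% of cells, the sign changed for Ass1 -1.68 (young), Arhgdib -0.76 (young), Bcl2a1d -0.40 (young), Bcl2a1a -0.43 (young) and -0.16 (adult), Bcl2a1b -0.44 (young), Brix1 0.53 (age), H2-T23 -0.76 (young). With the rule on thinned cells, the sign changed for Pitpnb 0.068 (age), Bcl2a1d -0.033 (young). In the lower Malat1 range, the sign changed for Ass1 -0.55 (young) and -0.33 (adult), Pf4 -0.25 (age), Cxcl3 -0.21 (age), Arhgdib -0.20 (young) and -0.27 (adult), Bcl2a1d -0.60 (adult), Bcl2a1a -0.11 (young) and -0.53 (adult), Bcl2a1b -0.56 (young) and -0.53 (adult), H2-T23 -0.14 (young) and -0.29 (adult). In cells of middle complexity, the sign changed for Pf4 -0.71 (age), Cxcl3 -0.36 (age), Ccl12 -0.40 (age). The settings without shared barcodes, in the lower Malat1 range and in cells of middle complexity (1000 to under 1400 genes at 5000 UMIs) were chosen after the data had been seen. In cells of middle complexity the sign turned for the S list in both libraries, the young serine ratio and all 3 age ratios. The young serine ratio, near 0 as reported, turned under 5 other settings too (0.035 with at least 20 mCherry UMIs), the adult serine ratio in the lower Malat1 range and the G2 and M age ratio without the deepest 6% of cells. The causes of these shifts were not tested beyond the change of cells itself. No paired analysis was possible because each age has 1 library and the labels carry no replicate numbers, and for the same reason no replicate could be left out. Depth limits the negative class: thinned to 5000 UMIs more mCherry cells were without the 3 transcripts, and genes with few UMIs in 155 or 195 cells carry wide intervals.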

Other observations

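Several stress and metabolic lists not described above had medians below 0 for negative over positive cells, most of them close to the median of all features. Over all features 43.4% were lower in both libraries, and 23.1% of those that reached 20 CPM in negative cells. Most of the counts below lie near these shares and say little about the lists themselves. Of 14 endoplasmic reticulum chaperones 7 were at least 1.5-fold lower in both libraries and 0 higher, with medians of -0.55 and -0.62, and scaled by the median of all features 3 were lower. Of 11 hypoxia genes 4 were lower and 0 higher (medians -0.49 and -0.79), and scaled 2 were lower. Of 7 p53 targets 3 were lower and 0 higher (medians -0.56 and -0.78). Of 10 heat shock genes 5 were lower and 0 higher (medians -0.50 and -0.54), while scaled 2 were higher and 1 lower. Of 4 cholesterol synthesis genes at 20 CPM or more, 3 were lower and 0 higher (medians -1.48 and -1.38), and of 7 TGF beta genes 4 were lower and 0 higher (medians -1.12 and -1.32). Of those that reached 20 CPM in negative cells, 4 of 10 chaperones, 2 of 7 hypoxia genes, 1 of 5 p53 targets, 2 of 7 heat shock genes, 0 of 1 cholesterol genes and 1 of 4 TGF beta genes were lower.

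Genes of the actin cytoskeleton and of ribosomes did not follow the general shift. Of 15 SRF and actin genes 2 were higher and 3 lower in both libraries, with medians of 0.31 and 0.01. Of 85 ribosomal protein genes 1 was higher and 2 lower, with medians of 0.28 and 0.29, and scaled by the median of all features 78 were higher and 0 lower. Of 12 mitochondrially encoded genes 0 were higher and 1 lower, with medians of -0.22 and -0.44.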
